A study of Mus musculus with 38 samples.

Results

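The 10 genes examined here write, read or remove methylation of histone H3 at lysine 9 (H3K9): the writers Ehmt1, Ehmt2, Setdb1, Suv39h1 and Suv39h2, the corepressor Trim28, the erasers Kdm3a and Kdm4c, and the readers Cbx1 and Cbx5. They were chosen by name from textbook roles, with earlier results of these data known. Each had 1 entry among the 25965 genes of the deposited RNA sequencing table. The libraries come from E14 (129/Ola) cells, a feeder-free XY mouse embryonic stem cell line grown on gelatin and passaged every 2 days. S/L was serum medium with leukaemia inhibitory factor (LIF), a cytokine that sustains self-renewal. All other groups were in serum-free N2B27 medium with LIF, with 1 µM of the MEK inhibitor PD03259010 (as the labels spell it) in MEKi/L, with 3 µM of the GSK3 inhibitor CHIR99021 in GSK3i/L, and with both inhibitors at these doses in 2i/L. At 8 days each of these 4 media is represented by 3 libraries, and a further 2 were made from GSK3i/L after 24 days, which makes 14 libraries in 5 groups. The series also holds 24 bisulfite samples, which were not analysed here. No library came from N2B27 medium without an inhibitor, so the step from serum to N2B27 and the action of an inhibitor cannot be told apart in any comparison with S/L. The replicates are of 1 line and are not said to be separate cultures, so the spread behind each p-value may be technical.

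H3K9 methylation marks silent chromatin. Ehmt1 (GLP) and Ehmt2 (G9a) work as a heterodimer that places mono- and dimethyl marks in euchromatin. Suv39h1 and Suv39h2 trimethylate pericentromeric repeats, and Setdb1, which Trim28 brings to DNA through KRAB zinc finger proteins, trimethylates endogenous retroviruses and imprinted control regions in embryonic stem cells. The HP1 proteins Cbx5 (HP1 alpha) and Cbx1 (HP1 beta) bind the mark through a chromodomain. Kdm3a removes mono- and dimethyl marks, Kdm4c removes di- and trimethyl marks, and both erasers are known for sustaining self-renewal of these cells.

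The promoters of Kdm3a, Setdb1 and Cbx5 are shown because these genes gave the largest changes of the eraser, writer and reader groups at 8 days. Each line holds the 250 bases before the first start listed by RefSeq (build GRCm38.p6), 5′ to 3′ on the gene's strand: chr6:71632918-71633167 for Kdm3a, chr3:95357203-95357452 for Setdb1 and chr15:103239853-103240102 for Cbx5, all on the minus strand. Capitals mark matches to any of the 6 motifs searched on both strands.
Kdm3a: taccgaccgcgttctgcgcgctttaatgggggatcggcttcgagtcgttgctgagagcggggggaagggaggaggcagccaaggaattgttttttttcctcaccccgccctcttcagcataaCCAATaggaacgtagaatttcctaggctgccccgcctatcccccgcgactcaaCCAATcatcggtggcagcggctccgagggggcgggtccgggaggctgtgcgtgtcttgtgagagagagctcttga
Setdb1: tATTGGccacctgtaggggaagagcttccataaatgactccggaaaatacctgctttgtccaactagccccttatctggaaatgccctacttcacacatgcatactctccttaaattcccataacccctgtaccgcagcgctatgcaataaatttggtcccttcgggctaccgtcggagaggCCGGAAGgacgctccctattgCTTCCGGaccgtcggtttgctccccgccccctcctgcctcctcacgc
Cbx5: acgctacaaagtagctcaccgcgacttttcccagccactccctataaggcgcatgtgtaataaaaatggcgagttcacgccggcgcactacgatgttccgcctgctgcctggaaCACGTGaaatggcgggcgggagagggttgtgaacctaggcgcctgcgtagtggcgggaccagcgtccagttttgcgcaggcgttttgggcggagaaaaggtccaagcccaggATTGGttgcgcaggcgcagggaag
In these windows Kdm3a holds 2 copies of the NFY box CCAAT, Setdb1 holds 2 copies of the ETS motif CCGGAAG on opposite strands and an NFY box, and Cbx5 holds the hypoxia response core ACGTG on both strands, overlapping as a palindrome, and an NFY box. At the first start of each of the 10 genes, CCAAT was found in 4 genes, ACGTG in 3, CCGGAAG in 1, the TCF/LEF motif CTTTGA in 1, and the STAT motif TTCNNNGAA and the E2F motif TTTGGCGC in 0. Among 32851 RefSeq promoter windows of the same length the shares were 33.8% for CCAAT, 16.6% for ACGTG, 6.91% for CCGGAAG, 13.8% for CTTTGA, 7.02% for TTCNNNGAA and 0.417% for TTTGGCGC. A STAT match, TTCATAGAA, lies 219 bases before the third RefSeq start of Kdm3a. A match is a description of the letters and says nothing of binding.

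Values are reads scaled to 1000000 per library (RPM) and not to transcript length, so levels are compared between groups and not between genes. Libraries held between 10551735 and 15757818 reads in the 8 that the authors scaled plainly, and about 8078833 to 18414108 in the 6 (S/L and GSK3i/L at 8 days) that they matched to a common distribution. The lowest value of the 10 genes, 32.3 RPM, corresponds to about 347 reads, and counting error was at most 5.37% of any value. A gene is called changed at an adjusted p under 0.05 in limma (Benjamini-Hochberg over 14980 genes), with no minimum fold. Embryonic stem cell markers were high in every library, with Pou5f1 between 1069 and 1557 RPM. The primitive endoderm markers summed to at most 25.1 RPM. The 6 neural markers summed to 114 to 157 RPM in S/L, 122 to 232 in MEKi/L, 85.5 to 113 in 2i/L and 43.6 to 68.2 in GSK3i/L at 8 days, and to 28.0 and 28.7 RPM at 24 days, with Neurog2 at 0 in every library. The 6 trophoblast markers summed to 30.7 to 36.5 RPM in S/L, 61.6 to 79.1 in MEKi/L, 79.7 to 95.7 in 2i/L, 29.6 to 41.0 in GSK3i/L at 8 days and 19.4 to 26.1 at 24 days. Most of each sum was Tfap2c, at 27.0 to 33.4 RPM in S/L, 57.3 to 72.5 in MEKi/L and 71.7 to 89.3 in 2i/L. Each of the other trophoblast markers stayed at or below 9.02 RPM, and Elf5 at or below 0.229 RPM. The 8 fibroblast and mesenchyme markers summed to 101 to 245 RPM in GSK3i/L at 8 days, mostly collagens such as Col3a1, against 4.17 to 14.2 RPM in the other groups, and Dcn never passed 0.241 RPM. The part of those cells or transcripts in the results was not tested, and in bulk RNA fewer cells of a type and less RNA per cell cannot be told apart. A score of 15 very long less 15 short transcripts (difference of mean log2 RPM), kept as a measure of RNA and library quality, also differed between groups. Most of the short ones code for subunits of the mitochondrial respiratory chain, such as Ndufa1, Cox5b and Uqcrq. The score can therefore also follow the expression of those genes, which was not tested. It ran from -2.38 to -1.84 in S/L, 1.64 to 1.92 in 2i/L and -2.90 to -2.24 in GSK3i/L at 24 days. Replicate 1 stood apart in MEKi/L (1.89, where the other libraries had -0.90 and -0.47) and at 8 days in GSK3i/L (1.59, where they had -1.81 and -0.58). All 9 inhibitor libraries at 8 days had a higher score than any S/L library, and both 24-day libraries a lower one than any 8-day GSK3i/L library. Within MEKi/L and within GSK3i/L at 8 days it spanned most of its range, and its slope in a fit with group rests mainly on these. Fits with the score as a term are given where they end, make or turn a call.

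Over the 5 groups, 6 of the 10 genes differed in limma's F test, beside 75.3% of all tested genes. The smallest adjusted p was that of Kdm3a (1.8e-05), followed by Setdb1 (1.5e-04), Ehmt2 (0.0051), Cbx5 (0.010), Trim28 (0.015) and Ehmt1 (0.023). Cbx1 (0.065), Kdm4c (0.13), Suv39h2 (0.13) and Suv39h1 (0.20) missed the threshold. The highest group mean was 5.97 times the lowest for Kdm3a, 2.82 times for Setdb1, 2.38 times for Trim28 and 2.26 times for Cbx5, and only 1.27 times for Suv39h1. Without replicate 2 of GSK3i/L at 24 days, 3 of the 10 passed. The share of all tested genes was counted only with all 14 libraries.

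**Figure D1:**
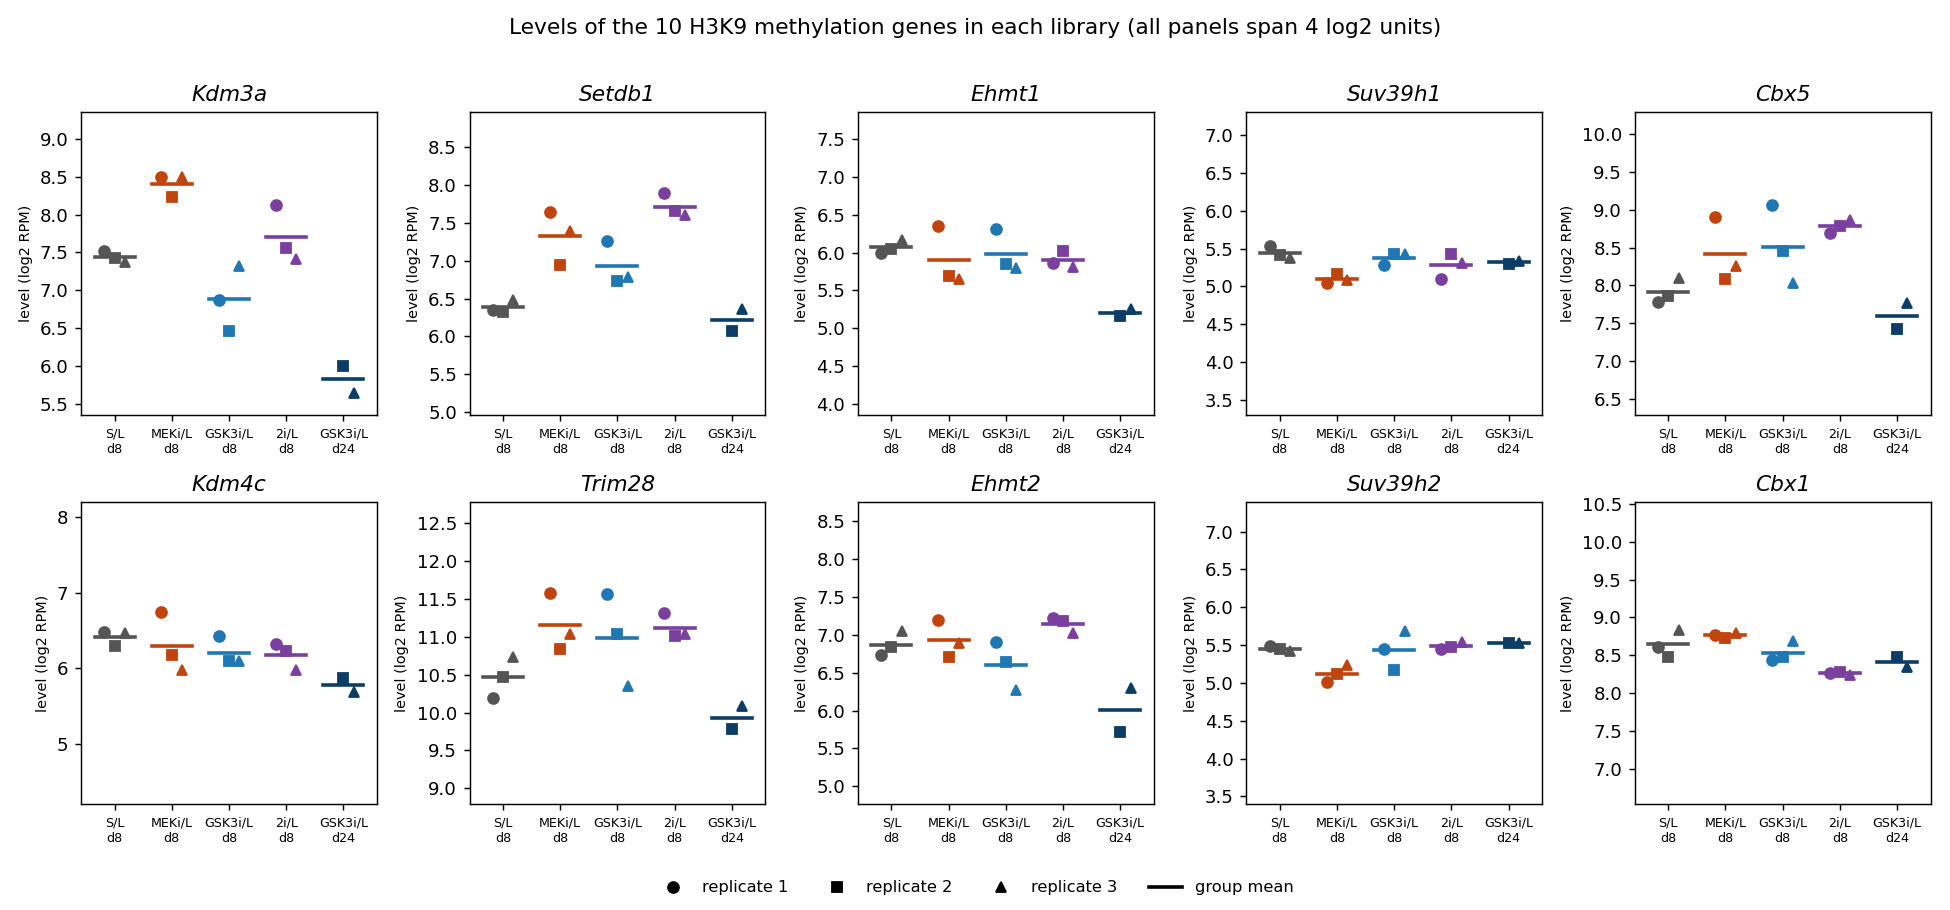
Level of each of the 10 genes (log2 RPM, vertical axis) in all 14 libraries, by group along the horizontal axis; points are libraries with the replicate number as shape, and bars are means of log2 values. Each panel spans the same number of log2 units, so distances can be compared: Kdm3a is highest in MEKi/L and lowest in GSK3i/L at 24 days, and the Suv39h1 and Suv39h2 points stay close together.

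Kdm3a, the demethylase of mono- and dimethylated H3K9, was highest in MEKi/L and lowest in GSK3i/L. On chr6:71588974-71632905 (minus strand, ENSMUSG00000053470), it stood at 165, 172 and 184 RPM in S/L. In MEKi/L the 3 libraries gave 299.9, 360.3 and 360.6 RPM. In GSK3i/L they gave 88.2, 117 and 159.7 RPM at 8 days, and 49.8 and 64.2 RPM at 24 days. In 2i/L they gave 170.1, 189 and 279.8 RPM. Every MEKi/L library was above every library of the other groups, every GSK3i/L library was below every S/L library, and the 2i/L libraries overlapped those of S/L. The group means in descending order were MEKi/L (340.3 ± 34.9 RPM, SD, n = 3), 2i/L (213 ± 58.7, n = 3), S/L (174 ± 9.59, n = 3), GSK3i/L at 8 days (122 ± 36.0, n = 3) and GSK3i/L at 24 days (57.0 ± 10.1, n = 2). The neighbours 2i/L and S/L overlapped, and each other neighbouring pair did not.

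Kdm3a rose 1.95-fold in MEKi/L against S/L (log2 difference 0.96 ± 0.23 SE, adjusted p = 0.0047), and the call held in all 14 alternatives tried. MEKi/L was 2.87-fold above GSK3i/L at 8 days (1.52 ± 0.23, adjusted p = 3.2e-04), again in all 14 alternatives. GSK3i/L against S/L missed the threshold, at -0.56 ± 0.23 (95% interval -1.05 to -0.07, adjusted p = 0.077). Without replicate 3 of GSK3i/L that difference was -0.78 with an adjusted p of 0.010. The 2i/L libraries differed from those of S/L by 0.26 (interval -0.23 to 0.75, adjusted p = 0.34) and from those of MEKi/L by -0.71 (interval -1.20 to -0.21, adjusted p = 0.057). The difference from MEKi/L passed in 4 of the 14 alternatives. Among them were quantile normalization (-0.82, adjusted p = 0.041) and median centring (-0.84, adjusted p = 0.038). Against GSK3i/L, 2i/L was 1.76-fold higher (0.82 ± 0.23, adjusted p = 0.018). That call was lost under quantile normalization (adjusted p = 0.050), under median centring (0.51, adjusted p = 0.14) and with those 2 groups alone (adjusted p = 0.070). It was also lost without replicate 2 of GSK3i/L (0.61, adjusted p = 0.081) or replicate 1 of 2i/L (0.60, adjusted p = 0.088).

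Kdm4c, the demethylase of di- and trimethylated H3K9 (chr4:74242497-74405860, plus strand), passed in 0 of the 7 comparisons in limma, at an adjusted p of 0.16 or more and an unadjusted p under 0.05 in 0. In 2i/L against S/L, however, the difference of -0.24 became a call under quantile normalization (-0.47, adjusted p = 0.036), under median centring (-0.54, adjusted p = 0.022) and with the score as a term (-0.81, adjusted p = 0.016), and with the score GSK3i/L was also below S/L (-0.47, adjusted p = 0.038). Its means ran from 85.3 ± 6.01 RPM in S/L (n = 3) through 80.9 ± 23.5 in MEKi/L, 74.2 ± 10.5 in GSK3i/L and 72.6 ± 8.56 in 2i/L to 55.0 ± 4.99 RPM in GSK3i/L at 24 days (n = 2). The 24-day libraries lay below the libraries of every other group. The ratio of Kdm3a to Kdm4c within a library does not change with a library's total, though matching to a common distribution can alter it in S/L and in GSK3i/L at 8 days. It was 1.86, 2.07 and 2.20 in S/L. In MEKi/L it was 3.35, 4.16 and 5.73, and in 2i/L it was 2.52, 2.69 and 3.50. In GSK3i/L it was 1.30, 1.35 and 2.34 at 8 days and 0.969 and 1.10 at 24 days. The MEKi/L and 2i/L ratios all lay above those of S/L, and the 24-day ratios lay below every other.

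Setdb1, the enzyme that trimethylates H3K9 at retroelements (chr3:95323525-95357202, minus strand), rose in MEKi/L and in 2i/L against S/L. The S/L libraries gave 80.1, 81.5 and 89.0 RPM, the GSK3i/L libraries 106, 111 and 153 RPM, the MEKi/L libraries 123, 167 and 199 RPM and the 2i/L libraries 194, 201 and 237 RPM. All 9 inhibitor libraries at 8 days were above the highest S/L library. The means were 211 ± 23.0 RPM in 2i/L, 163 ± 38.5 in MEKi/L, 123 ± 25.7 in GSK3i/L and 83.6 ± 4.81 in S/L (n = 3 each). Setdb1 rose 2.52-fold in 2i/L against S/L (log2 difference 1.33 ± 0.20 SE, adjusted p = 7.8e-05) and 1.92-fold in MEKi/L against S/L (0.94 ± 0.20, adjusted p = 0.0022), each in all 14 alternatives. These comparisons share the S/L libraries. With the score as a term the 2i/L difference was 0.67 (adjusted p = 0.026) and that of MEKi/L 0.55 (adjusted p = 0.013). GSK3i/L against S/L missed the threshold at 0.54 (interval 0.12 to 0.97, adjusted p = 0.052). It passed under quantile normalization, median centring and without replicate 3 of GSK3i/L (adjusted p = 0.032). Setdb1 was 1.73-fold higher in 2i/L than in GSK3i/L (0.79, adjusted p = 0.010), a call lost under median centring (0.48, adjusted p = 0.077) and with the score as a term (0.44, adjusted p = 0.051). Between 2i/L and MEKi/L it differed by 0.39 (interval -0.03 to 0.82, adjusted p = 0.19).

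**Figure D2:**
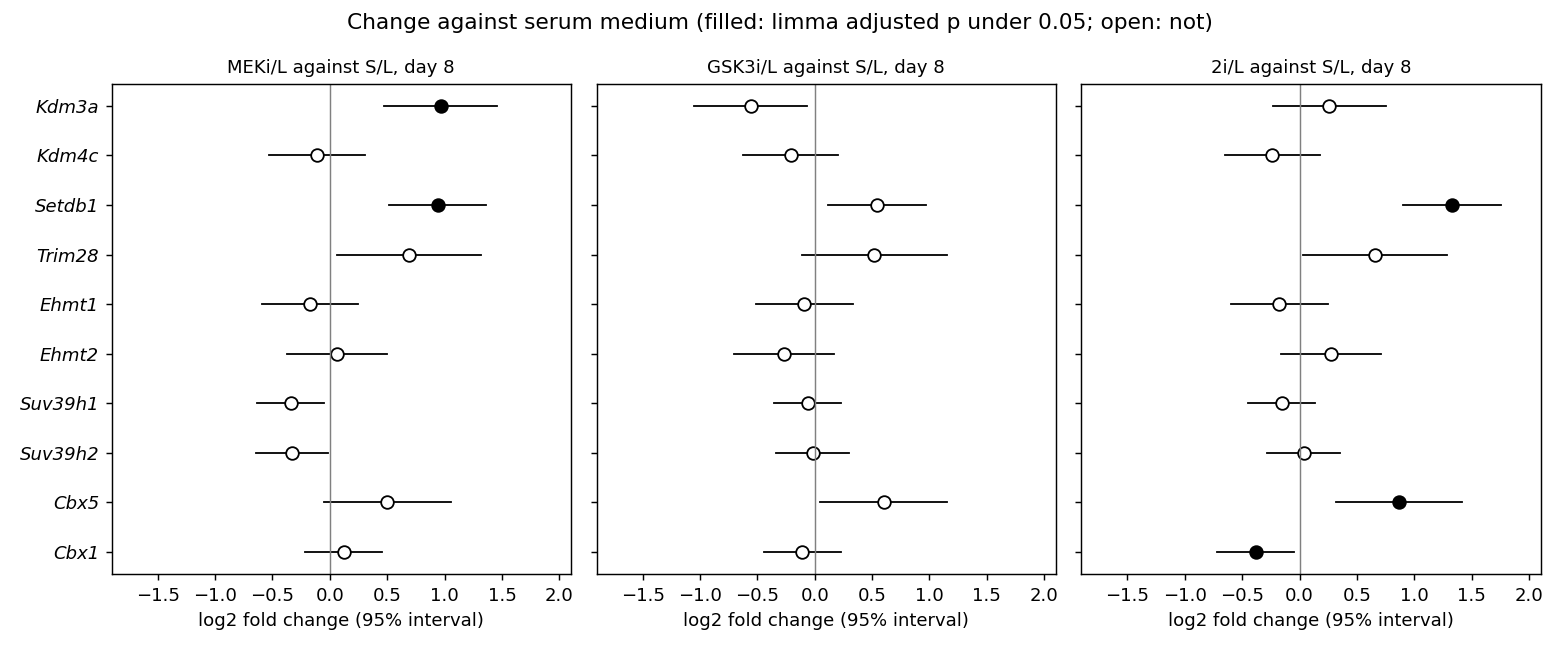
Difference from S/L at 8 days (log2 fold change, horizontal axis) of the 10 genes in MEKi/L, GSK3i/L and 2i/L; circles are estimates of limma, lines their 95% intervals, and filled circles have an adjusted p under 0.05. Filled circles are Kdm3a and Setdb1 in MEKi/L, and Setdb1, Cbx5 and Cbx1 in 2i/L, with Cbx1 to the left of 0.

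Trim28, the corepressor that brings Setdb1 to KRAB zinc finger targets (chr7:13024152-13031035, plus strand), passed in 0 of the 6 limma comparisons at 8 days, with an unadjusted p under 0.05 in 2. It stood at 1169.7, 1416 and 1705 RPM in S/L, and at 2058, 2096 and 2556 RPM in 2i/L, with no overlap. The MEKi/L libraries (1834, 2111 and 3059 RPM) were also above S/L, and the GSK3i/L libraries (1311, 2104 and 3027 RPM) overlapped it. The log2 difference from S/L was 0.65 in 2i/L (interval 0.03 to 1.28, adjusted p = 0.064), 0.69 in MEKi/L (interval 0.06 to 1.32, adjusted p = 0.073) and 0.52 in GSK3i/L (adjusted p = 0.18). With the score as a term these were -0.54, -0.0031 and -0.034, and the highest Trim28 values of MEKi/L and GSK3i/L were those of the replicates 1 whose score stood apart. Under quantile normalization the differences from S/L were 1.01 in 2i/L (adjusted p = 0.019) and 0.96 in MEKi/L (adjusted p = 0.034). Without both replicates 1 that stood apart 2i/L was called above S/L (0.65, adjusted p = 0.0070). In that fit MEKi/L (0.48, adjusted p = 0.092) and GSK3i/L (0.23, adjusted p = 0.44) were not. The GSK3i/L difference from S/L passed in 1 of the 14 alternatives (adjusted p = 0.018). In the fit with the score, 2i/L was below MEKi/L (-0.53, adjusted p = 0.024) and below GSK3i/L (-0.50, adjusted p = 0.032).

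The euchromatic writers Ehmt1 (chr2:24790769-24919609, minus strand) and Ehmt2 (chr17:34898469-34914052, plus strand) passed in 0 of the 6 limma comparisons at 8 days, with an unadjusted p under 0.05 for Ehmt2 in 1. Ehmt1 means at 8 days lay between 59.7 ± 4.62 RPM in 2i/L and 67.3 ± 4.17 RPM in S/L, and the libraries of all 4 media overlapped. With the score as a term, Ehmt1 was below S/L in each of the other media, at -0.62 in MEKi/L (adjusted p = 0.0032), -0.45 in GSK3i/L (adjusted p = 0.019) and -0.95 in 2i/L (adjusted p = 0.0014), and 2i/L was below GSK3i/L (-0.50, adjusted p = 0.016). It was also called lower in 2i/L against S/L under quantile normalization (-0.43, adjusted p = 0.047) and median centring (-0.48, adjusted p = 0.032). At 8 days Ehmt2 was lowest in GSK3i/L (77.2, 100.1 and 119.5 RPM) and highest in 2i/L (130.4, 146 and 149 RPM), with no overlap, and the log2 difference was 0.54 (interval 0.10 to 0.98, adjusted p = 0.062). Without replicate 1 of GSK3i/L it was 0.69 with an adjusted p of 0.021, while under median centring it was 0.23 (adjusted p = 0.38) and with the score as a term 0.16 (adjusted p = 0.51). With the score Ehmt2 was lower in GSK3i/L than in S/L (-0.60, adjusted p = 0.0061). The ratio of Ehmt1 to Ehmt2 within a library was 0.543, 0.580 and 0.600 in S/L and 0.391, 0.428 and 0.443 in 2i/L, so that every 2i/L library lay below every S/L library. In MEKi/L it ran from 0.421 to 0.556 and in GSK3i/L at 8 days from 0.574 to 0.716.

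The pericentromeric writers Suv39h1 (chrX:8061171-8074760, minus strand) and Suv39h2 (chr2:3455815-3475031, minus strand) had their lowest means in MEKi/L. Suv39h1 stood at 33.0, 33.8 and 35.8 RPM in MEKi/L and at 41.5, 42.5 and 46.2 RPM in S/L. Suv39h2 stood at 32.3, 34.8 and 37.7 RPM in MEKi/L and at 42.7, 43.6 and 45.0 RPM in S/L. Neither pair of groups overlapped, and the tests missed the threshold, at a log2 difference of -0.34 (interval -0.63 to -0.05, adjusted p = 0.058) for Suv39h1 and -0.33 (interval -0.64 to -0.01, adjusted p = 0.088) for Suv39h2. Both passed under quantile normalization (-0.48, adjusted p = 0.0098, and -0.47, adjusted p = 0.023) and under median centring (-0.52, adjusted p = 0.0072, and -0.50, adjusted p = 0.018). These 2 settings also called both lower in MEKi/L than in GSK3i/L at 8 days (adjusted p between 0.026 and 0.048). In 2i/L against S/L they called Suv39h1 lower (-0.45, adjusted p = 0.0084, and -0.46, adjusted p = 0.0077). Suv39h2 was not called there (adjusted p = 0.14 in each). Against GSK3i/L, Suv39h1 was also called lower in 2i/L (adjusted p = 0.045 and 0.038). Each gene is overlapped on the other strand by a gene that was higher in MEKi/L: Gm14820, over 13449 bases of Suv39h1, at 35.1 to 42.1 RPM in MEKi/L and 14.4 to 25.3 RPM in S/L, and Dclre1c, over 8316 bases of Suv39h2, at 28.0 to 31.3 RPM and 12.3 to 15.2 RPM. No source used here says whether reads were counted by strand, so reads of these partners cannot be told apart with certainty. The ratio of Suv39h1 to Suv39h2 stayed between 0.786 and 1.20 in all 14 libraries.

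The HP1 readers moved apart in 2i/L. Cbx5 (chr15:103191544-103239816, minus strand) stood at 219.7, 231.5 and 274 RPM in S/L and at 413, 441 and 465 RPM in 2i/L. Cbx1 (chr11:96789127-96808640, plus strand) stood at 357, 391 and 458 RPM in S/L and at 302, 309.1 and 309.4 RPM in 2i/L. The groups did not overlap for either gene. Cbx5 rose 1.82-fold (log2 difference 0.87 ± 0.26 SE, adjusted p = 0.0094) and Cbx1 fell by 0.38 ± 0.16 on the log2 scale (adjusted p = 0.044). The Cbx5 call was lost under median centring (0.56, adjusted p = 0.061), and with the score as a term its direction turned (-0.29, adjusted p = 0.20). The Cbx1 call was lost without a filter on low genes (adjusted p = 0.059), with the score as a term (-0.24, adjusted p = 0.35) and without replicate 1 (adjusted p = 0.077) or 3 (-0.28, adjusted p = 0.17) of S/L or any 1 of the 2i/L libraries (0.093 to 0.11). Cbx1 was also 1.42-fold lower in 2i/L than in MEKi/L (-0.50 ± 0.16, adjusted p = 0.047), where the libraries gave 423, 437 and 444 RPM. That call was lost without replicate 2 or 3 of MEKi/L or any 1 of the 2i/L libraries (adjusted p between 0.11 and 0.14), with no filter on low genes and with log2(RPM + 1). Cbx5 ran from 271 to 477 RPM in MEKi/L and from 262 to 532 RPM in GSK3i/L at 8 days, each time with the highest value in the replicate 1 that stood apart. Its difference from S/L was 0.50 in MEKi/L (adjusted p = 0.13) and 0.60 in GSK3i/L (interval 0.05 to 1.15, adjusted p = 0.087). Without replicate 3 of GSK3i/L the latter was 0.84 with an adjusted p of 0.013. Between 2i/L and GSK3i/L at 8 days Cbx5 differed by 0.27 (adjusted p = 0.45), and the alternatives gave calls in both directions. It was lower in 2i/L with the score as a term (-0.35, adjusted p = 0.038). Without both replicates 1 that stood apart it was higher in 2i/L (0.54, adjusted p = 0.019). In that fit Cbx5 was also higher in 2i/L than in MEKi/L (0.61, adjusted p = 0.014).

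The ratio of Cbx5 to Cbx1 within a library sets the same pair side by side, with the same limit from matching as for the demethylases. It was 0.562, 0.599 and 0.649 in S/L and 1.33, 1.43 and 1.54 in 2i/L. In MEKi/L it was 0.640, 0.688 and 1.09, in GSK3i/L at 8 days 0.633, 0.977 and 1.54, and in GSK3i/L at 24 days 0.482 and 0.669. All 2i/L libraries lay above all S/L, MEKi/L and 24-day libraries, and the GSK3i/L libraries at 8 days covered most of the range. As mean log2 ratios, 2i/L lay 1.25 above S/L, and between 1.20 and 1.30 when 1 library was left out. For Ehmt1 to Ehmt2 the difference was -0.45, for Kdm3a to Kdm4c 0.49, and for Suv39h1 to Suv39h2 -0.19. These are values with no test. The Cbx5 to Cbx1 difference was not kept in the fit with the score as a term, where Cbx5 (-0.29) and Cbx1 (-0.24) stood at similar distances below S/L.

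**Figure D3:**
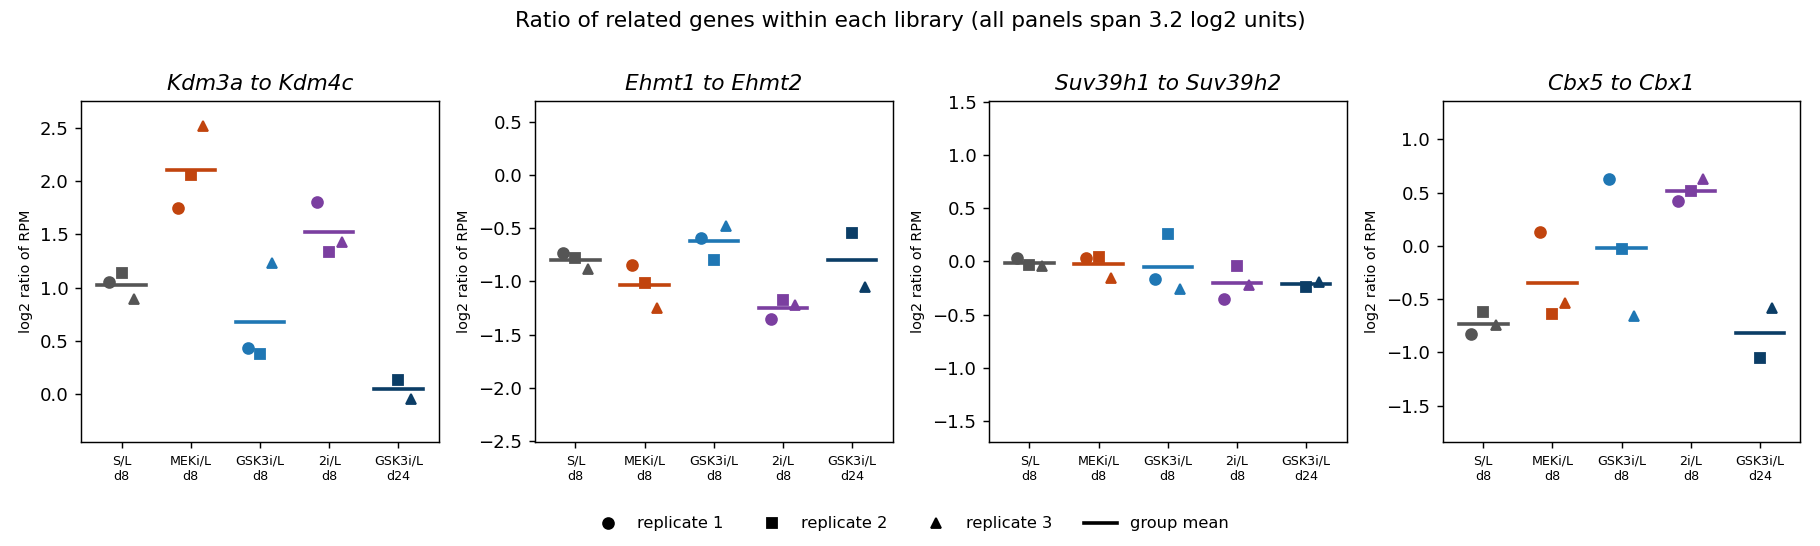
Ratio of related genes within each of the 14 libraries (log2 ratio of RPM, vertical axis) by group; points are libraries with the replicate number as shape, and bars are group means. The Cbx5 to Cbx1 panel has all 2i/L points above 0 and all S/L points below 0, and the Kdm3a to Kdm4c points of MEKi/L and 2i/L lie above those of S/L.

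Between 8 and 24 days in GSK3i/L, 5 of the 10 genes fell and 0 rose, beside 13.2% of tested genes called lower and 4.3% called higher. Of the 10 genes 6 had both 24-day libraries below every 8-day library and 0 above, beside 31% and 15.4% of tested genes. Kdm3a fell by 1.06 ± 0.26 on the log2 scale (2.09-fold, adjusted p = 0.019), from 88.2, 117 and 159.7 RPM to 49.8 and 64.2 RPM. Trim28 fell by 1.05 ± 0.33 (adjusted p = 0.043) to 878 and 1087 RPM, and Cbx5 fell by 0.92 ± 0.29 (adjusted p = 0.044) to 172 and 217 RPM. Ehmt1 fell by 0.78 ± 0.22 (adjusted p = 0.032), from 55.3, 57.5 and 79.4 RPM to 35.9 and 38.0 RPM. Setdb1 fell by 0.71 ± 0.22 (adjusted p = 0.044), from 106, 111 and 153 RPM to 67.1 and 82.4 RPM. Ehmt2 differed by -0.60 (interval -1.09 to -0.11, adjusted p = 0.077), with libraries at 52.4 and 78.8 RPM. Cbx1, Kdm4c, Suv39h1 and Suv39h2 differed by -0.12, -0.43, -0.06 and 0.10 (adjusted p between 0.16 and 0.79). Suv39h2 had its highest group mean here, at 46.2 and 46.3 RPM.

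The 24-day differences of the 5 genes rest on few libraries. The fit with the 2 groups alone called 0 of them, and leaving out replicate 2 or 3 at 24 days ended the call of each of the 5, with 0 of the 10 genes called without either. The calls of Setdb1, Trim28 and Cbx5 were lost under quantile normalization (adjusted p of 0.093, 0.062 and 0.082) and under median centring (0.059, 0.056 and 0.052). Without replicate 1 of GSK3i/L at 8 days the 4 calls of Trim28, Cbx5, Ehmt1 and Setdb1 were lost (adjusted p between 0.12 and 0.16), and without replicate 2 those of Setdb1 (0.053), Trim28 (0.085) and Cbx5 (0.073). When replicate 1 of MEKi/L was left out as well, Trim28 (0.043), Cbx5 (0.035) and Ehmt1 (0.020) were called by limma and Setdb1 (0.063) was not. With the score as a term Kdm3a was still called (-1.18, adjusted p = 0.024), while Setdb1 (-0.31, adjusted p = 0.33), Trim28 (-0.34, adjusted p = 0.30), Ehmt1 (-0.31, adjusted p = 0.27) and Cbx5 (-0.22, adjusted p = 0.35) were not. The 10 proliferation markers summed to 2055 and 2169 RPM at 24 days and 2638 to 3801 RPM at 8 days, and their part in the differences was not tested. Of these markers 4 were called lower by limma, 0 higher and 6 neither, beside 13.2% and 4.3% of tested genes called lower and higher. Pcna was at 427 to 529 RPM at 24 days and 269 to 503 RPM at 8 days. No other medium was sequenced at 24 days, and the 24-day libraries were scaled plainly while the 8-day ones were matched, so longer inhibition, time in culture and scaling cannot be told apart.

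**Figure D4:**
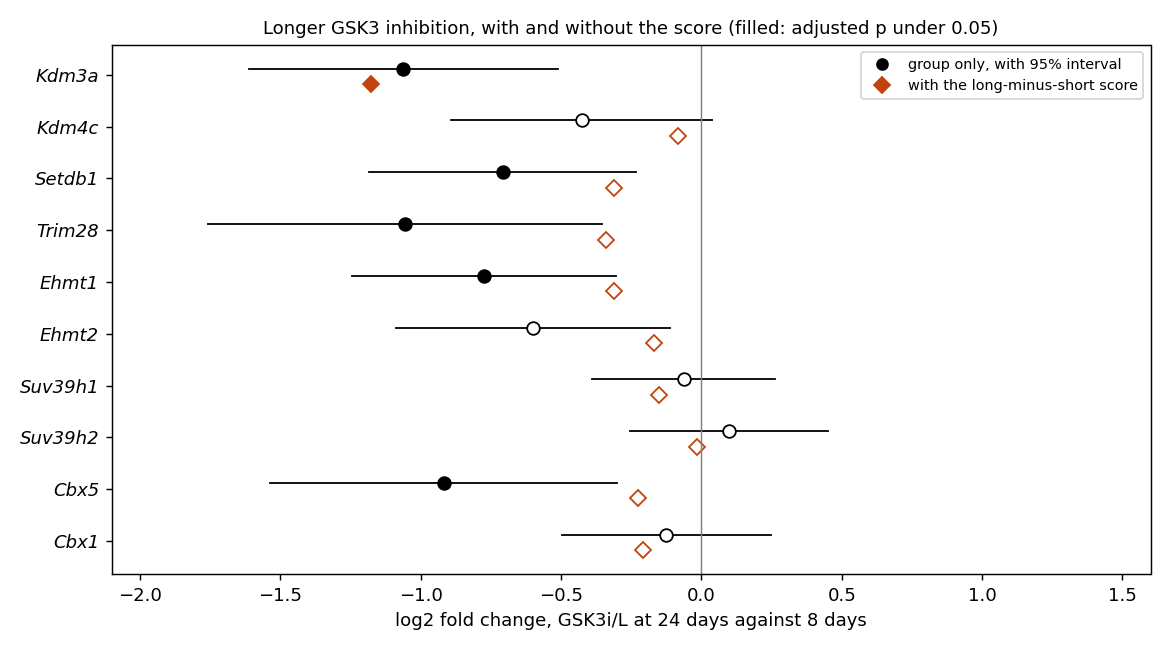
Difference of GSK3i/L at 24 days from 8 days (log2 fold change, horizontal axis) for the 10 genes; circles are limma estimates with 95% intervals from the fit with group only, diamonds the estimates with the long-less-short transcript score as a term, and filled symbols have an adjusted p under 0.05. Kdm3a is filled in both fits, and the diamonds of Setdb1, Trim28, Ehmt1 and Cbx5 lie nearer to 0 and are open.

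The 10 genes gave few calls at 8 days. In MEKi/L against S/L, 2 rose and 0 fell, beside 26.1% and 14.7% of tested genes, with a median log2 difference of 0.09 against 0.17 over all tested genes. In 2i/L against S/L, 2 rose and 1 fell, beside 39.1% and 24.4%, with medians of 0.15 and 0.28. In GSK3i/L against S/L, 0 rose and 0 fell by limma, beside 16.8% and 14.4%, with medians of -0.07 and 0.06, and 3 of the 10 (Setdb1, Kdm3a and Cbx5) had an unadjusted p under 0.05. In 2i/L against GSK3i/L, 2 rose and 0 fell, beside 19.8% and 8.02%, and in MEKi/L against GSK3i/L, 1 rose and 0 fell, beside 12.2% and 5.65%. In 2i/L against MEKi/L, 0 rose and 1 fell, beside 6.81% and 6.11%. Groups that did not overlap were counted in the same way. In MEKi/L 3 of the 10 genes had all libraries above and 2 all libraries below those of S/L, beside 33.7% and 21.5% of tested genes. In GSK3i/L against S/L these were 1 and 1, beside 22.8% and 18.1%, and in 2i/L against S/L 3 and 1, beside 45.4% and 29.5%. In 2i/L against MEKi/L they were 1 and 2, beside 21.6% and 16.2%, in 2i/L against GSK3i/L 3 and 1, beside 32.2% and 13.5%, and in MEKi/L against GSK3i/L 2 and 1, beside 18.4% and 9.28%. The median over the 10 genes at 24 against 8 days was -0.65, and -0.19 over all tested genes. The balance of higher and lower genes depends on the scaling. Median centring moved the median of all tested genes from 0.28 to -0.03 in 2i/L against S/L, from 0.17 to -0.0037 in MEKi/L against S/L and from 0.18 to -0.12 in 2i/L against GSK3i/L. The share of higher genes among called ones then went from 61.6% to 46.3%, from 64.0% to 50.6% and from 71.2% to 37.9%, in MEKi/L against GSK3i/L from 68.3% to 50.1%, and in 2i/L against MEKi/L from 52.7% to 38.3%. At 24 against 8 days it went from 24.6% to 38.2% under quantile normalization.

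Other genes of H3K9 methylation were counted from a list of 41, of which 40 were tested. In 2i/L against S/L, 23 of the 40 rose and 6 fell, beside 39.1% and 24.4% of all tested genes, which became 15 and 6 under median centring and 2 and 5 with the score as a term. In MEKi/L against S/L, 16 rose and 5 fell, beside 26.1% and 14.7% (10 and 8 under median centring, 8 and 8 with the score), and in GSK3i/L against S/L, 5 rose and 4 fell, beside 16.8% and 14.4% (4 and 13 with the score). The median log2 difference of the 40 in 2i/L against S/L was 0.59, beside 0.28 over all tested genes. At 24 against 8 days 0 rose and 10 fell, beside 4.3% and 13.2% (1 and 3 with the score), among them the demethylases Kdm1a, Kdm3b and Kdm4b and the HP1 gene Cbx3. Of the 8 other erasers, 5 rose and 0 fell in 2i/L against S/L, also under median centring, and 1 rose and 1 fell with the score as a term. Kdm3b, the close relative of Kdm3a, rose by 2.09 ± 0.23 on the log2 scale (adjusted p = 6.9e-06), from 66.1 ± 4.999 to 281 ± 26.2 RPM (n = 3 each). The trimethyl demethylase Kdm4a (1.39, from 69.6 to 182 RPM), Phf8 (1.49, from 17.7 to 49.2 RPM) and Phf2 (1.63, from 5.58 to 16.9 RPM) rose as well, with adjusted p of 2.3e-04, 3.0e-04 and 9.4e-04. Of the 9 other readers, 7 rose and 1 fell (3 and 1 under median centring, 0 and 2 with the score); those that rose include the chromodomain gene Cdyl2 (1.67 ± 0.28, adjusted p = 1.8e-04) and the HP1 partner Adnp (1.06 ± 0.20, adjusted p = 5.4e-04).

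The partners of Setdb1 and Trim28 gave calls in both directions. In the Trim28 and HUSH list 3 of 10 rose and 3 fell in 2i/L against S/L, near the 39.1% and 24.4% of all tested genes, and 0 rose and 1 fell with the score as a term. Atf7ip, which stabilises Setdb1, rose in 2i/L against S/L from 30.5 ± 7.19 to 60.0 ± 5.89 RPM (1.00 ± 0.30, adjusted p = 0.010), a call lost under median centring (0.70, adjusted p = 0.053). The deposited data hold 2 entries of Atf7ip, and these values are of the first only. Mphosph8, the chromodomain subunit of the HUSH silencing complex, rose from 66.8 ± 5.73 to 145 ± 13.995 RPM (1.12 ± 0.26, adjusted p = 0.0023). The KRAB zinc finger gene Zfp932 fell by 2.03 ± 0.42 (adjusted p = 9.5e-04), from 32.5 ± 13.6 to 7.62 ± 1.18 RPM. D14Abb1e (Tasor), another HUSH subunit, rose by 1.01 ± 0.20 in MEKi/L against S/L (adjusted p = 0.0015). In GSK3i/L, the KRAB zinc finger gene Zfp809 fell by 1.14 ± 0.19 (adjusted p = 5.2e-04) and Atf7ip2 fell by 1.04 ± 0.21 (adjusted p = 0.0023). Prdm16 rose in MEKi/L by 2.44 ± 0.34 (adjusted p = 8.2e-05), from 2.35 ± 0.181 to 13.01 ± 3.52 RPM. Of the 5 genes of histone H3 assembly and silencing 4 rose in 2i/L against S/L (2 under median centring or quantile normalization, 1 with the score), among them Chaf1b (0.99 ± 0.16, adjusted p = 1.3e-04) and Atrx (1.15 ± 0.30, adjusted p = 0.0042). Of the genes named for 2i/L against S/L, Kdm3b (1.10, adjusted p = 0.00041) and Chaf1b (0.64, adjusted p = 0.020) were still called by limma with the score as a term, while Kdm4a, Phf8, Phf2, Cdyl2, Adnp, Atf7ip, Mphosph8, Zfp932 and Atrx were not (adjusted p between 0.15 and 0.88).

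Across the 14 libraries Trim28 and Cbx5 were the most alike of the 10 genes (Pearson's r = 0.93 of log2 RPM), followed by Ehmt1 and Kdm4c (0.90) and Setdb1 and Cbx5 (0.88), and Setdb1 and Suv39h1 were the least alike (-0.57). Of 8987 other genes, the nearest to Kdm3a was Kctd9 (r = 0.98), to Setdb1 Naa40 (0.98), to Cbx5 Drosha (0.98) and to Trim28 Nono (0.98). The nearest to Ehmt1 was Ptpn12 (0.95), to Ehmt2 Ptprf (0.98), to Suv39h1 Slc35f5 (0.91), to Suv39h2 Srprb (0.89), to Kdm4c Slc28a1 (0.87) and to Cbx1 Ctnnal1 (0.92). These values describe libraries that share medium, scaling and the long-less-short transcript score, and carry no test.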

How the data were processed

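The authors deposited 1 table of log2 values (log2 RPM) for 25965 genes in 14 libraries. The 24 bisulfite samples were not analysed here. Libraries were made from poly(A) RNA with a directional kit and sequenced as single reads of 50 bases, per the labels' protocols. HISAT2, Trim Galore 0.6.5, Bismark 0.22.3 (for bisulfite reads) and the build GRCm38 stand in the submitters' processing notes. How reads were counted, and whether by strand, is not stated there. The deposited log2 columns had been made in 2 ways: in 8 libraries at least 99.96% of linear values were whole multiples of 1 read (within 0.02 of a read), with 0 reads set at 0.9 of a read. The 6 libraries of S/L and GSK3i/L at 8 days shared 1 distribution, with sorted values within 0.0793 above 2 RPM. Only 2i/L against MEKi/L (plain) and GSK3i/L against S/L (matched) lie within 1 treatment. Depth of the matched libraries was approximated from genes near 100 reads.

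A minimum of 0.5 RPM in 3 or more libraries left 14980 genes, all 10 members among them. They were tested in R 4.3.3 using limma 3.58.1 with moderated variances (trend and robust). All 14 libraries entered 1 fit on the log2 values with group as the only term. Levels are means ± SD of linear RPM, and differences are in log2 units ± SE. A count test was not used because the values are on a log scale. The procedure was tested on simulated data. The members and gene lists were chosen with earlier results of these data known. All 10 members are named. Of each other list, up to 4 genes with the largest difference among called ones with a mean of at least 5 RPM were named over the 3 comparisons with S/L, and per member the gene of highest correlation. Other names (Kdm1a, Kdm4b, Cbx3) were chosen after their values were seen. The long and short transcript lists hold 15 genes each. Alternatives were no filter, quantile normalization, median centring, log2(RPM + 1), the score as a term, the replicate number as a block, the 2 groups alone, leaving out each library, and, chosen after seeing the data, leaving out both replicates 1 that stood apart. Gene coordinates are those of the deposited table (GRCm38), and promoters are from RefSeq.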

Additional observations from a re-analysis of the deposited data

How the results depend on the processing

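The results of Kdm3a and Setdb1 in MEKi/L against S/L, Setdb1 in 2i/L against S/L and Kdm3a in MEKi/L against GSK3i/L kept direction and call in all 14 alternatives. Differences of the other members that turned sign missed the threshold in the reported fit, except Cbx5 in 2i/L against S/L. Same-numbered libraries did not pair in all groups: of 26 same-number pairs 8 had a correlation of deviations over 0.1 (range -0.31 to 0.67), and 7 of the 14 libraries correlated best with their own number. Between MEKi/L and GSK3i/L at 8 days the same-number pairs had 0.67, 0.12 and 0.40. Their different-number pairs ran from -0.59 to 0.38. The replicate block is given only as an alternative, and whether the numbers mark a batch in those groups was not tested. Under the block Kdm3a was the 1 call at 24 against 8 days, and Cbx1 in 2i/L was not called against S/L (adjusted p = 0.055) or MEKi/L (adjusted p = 0.061). Counting error of the members was at most 5.37%. Depth differed between groups, at about 8.12e+06 to 9.74e+06 reads in S/L and 1.27e+07 to 1.51e+07 in 2i/L. Within GSK3i/L at 8 days it followed the order of the score. Groups held 2 or 3 libraries, and scaling and the score also differed between groups. The part of each in the results, and the cause of each change of call, was not tested.

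Calls over all tested genes numbered 6118 in MEKi/L against S/L, 4666 in GSK3i/L against S/L, 9521 in 2i/L against S/L, 1936 in 2i/L against MEKi/L, 4171 in 2i/L against GSK3i/L, 2670 in MEKi/L against GSK3i/L, 2616 at 24 against 8 days. Of the 14980 genes, median centring called 4125 higher and 4787 lower in 2i/L against S/L. It called 3012 and 2946 in MEKi/L against S/L, and 2675 and 2070 in GSK3i/L against S/L. In the same order quantile normalization called 4859 and 4218, 3285 and 2774, and 2689 and 2091. The score as a term gave 2388 and 1571, 2869 and 1798, and 1962 and 2017. In the counts that follow, higher and lower are members called. With the score as a term there were 1 lower in MEKi/L against S/L, 3 lower in GSK3i/L against S/L, 1 higher, 2 lower and 3959 genes called in 2i/L against S/L, 2 lower in 2i/L against MEKi/L, 1 higher and 3 lower in 2i/L against GSK3i/L, 4759 genes called in MEKi/L against GSK3i/L, 1 lower and 539 genes called at 24 against 8 days. Under median centring there were 2 lower in MEKi/L against S/L, 1 higher in GSK3i/L against S/L, 1 higher and 4 lower in 2i/L against S/L, 2 lower in 2i/L against MEKi/L, 0 higher and 2 lower in 2i/L against GSK3i/L, 2 lower in MEKi/L against GSK3i/L, 2 lower at 24 against 8 days. Under quantile normalization there were 2 lower in MEKi/L against S/L, 1 higher in GSK3i/L against S/L, 4 lower in 2i/L against S/L, 2 lower in 2i/L against MEKi/L, 1 higher and 1 lower in 2i/L against GSK3i/L, 2 lower in MEKi/L against GSK3i/L, 2 lower at 24 against 8 days. Without both replicates 1 that stood apart there were 1 lower in MEKi/L against S/L, 2 higher and 5505 genes called in 2i/L against MEKi/L, 4 higher and 6738 genes called in 2i/L against GSK3i/L. With no filter there were 0 lower and 18090 genes called in 2i/L against S/L, 0 lower in 2i/L against MEKi/L, 13127 genes called in 2i/L against GSK3i/L. With the 2 groups alone there were 2678 genes called in GSK3i/L against S/L, 4 higher in 2i/L against S/L, 2 lower in 2i/L against MEKi/L, 1 higher in 2i/L against GSK3i/L, 1591 genes called in MEKi/L against GSK3i/L, 0 lower and 149 genes called at 24 against 8 days. With the replicate number as a block there were 1 higher in GSK3i/L against S/L, 0 lower in 2i/L against S/L, 0 lower in 2i/L against MEKi/L, 1 lower and 1194 genes called at 24 against 8 days. With log2(RPM + 1) there were 0 lower in 2i/L against MEKi/L. Leaving out 1 library at a time gave counts of 0 to 3 higher, 0 to 1 lower and 2800 to 6748 genes called in GSK3i/L against S/L, 0 to 1 lower in 2i/L against S/L, 0 to 1 lower and 966 to 3962 genes called in 2i/L against MEKi/L, 1 to 3 higher and 2578 to 5744 genes called in 2i/L against GSK3i/L, 0 to 6 lower and 372 to 5885 genes called at 24 against 8 days, and 3 to 7 of the 10 genes in the F test. Signs turned, with ranges of log2 difference, for Ehmt2 -0.072 to 0.18 and Kdm4c -0.34 to 0.050 in MEKi/L against S/L, for Ehmt1 -0.25 to 0.0077 and Suv39h2 -0.14 to 0.11 in GSK3i/L against S/L, for Ehmt1 -0.13 to 0.23, Trim28 -0.19 to 0.18 and Kdm4c -0.29 to 0.10 in 2i/L against MEKi/L, for Ehmt1 -0.18 to 0.079, Suv39h2 -0.076 to 0.18, Trim28 -0.18 to 0.42 and Kdm4c -0.10 to 0.086 in 2i/L against GSK3i/L, for Ehmt1 -0.31 to 0.081, Trim28 -0.15 to 0.46, Kdm4c -0.13 to 0.26 and Cbx5 -0.34 to 0.17 in MEKi/L against GSK3i/L, for Suv39h2 -0.031 to 0.22 at 24 against 8 days. With the score as a term the sign turned for Ehmt2 -0.35, Trim28 -0.0031 and Cbx5 -0.17 in MEKi/L against S/L, for Suv39h1 0.0099, Suv39h2 0.072 and Trim28 -0.034 in GSK3i/L against S/L, for Ehmt2 -0.44, Trim28 -0.54 and Cbx5 -0.29 in 2i/L against S/L, for Ehmt2 -0.087 and Cbx5 -0.12 in 2i/L against MEKi/L, for Trim28 -0.50 and Cbx5 -0.35 in 2i/L against GSK3i/L, for Suv39h2 -0.017 at 24 against 8 days. Under median centring the sign turned for Ehmt2 -0.11 and Cbx1 -0.054 in MEKi/L against S/L, for Ehmt2 -0.034, Suv39h2 -0.27 and Kdm3a -0.049 in 2i/L against S/L, for Suv39h2 -0.25, Trim28 -0.17 and Cbx5 -0.041 in 2i/L against GSK3i/L, for Trim28 -0.0064 and Kdm4c -0.079 in MEKi/L against GSK3i/L, for Suv39h1 0.019 at 24 against 8 days. Under quantile normalization the sign turned for Suv39h2 -0.26 in 2i/L against S/L, for Trim28 0.045 in 2i/L against MEKi/L, for Suv39h2 -0.24 in 2i/L against GSK3i/L, for Kdm4c -0.0019 in MEKi/L against GSK3i/L, for Suv39h1 0.050 at 24 against 8 days. Without both replicates 1 that stood apart the sign turned for Ehmt2 -0.072 in MEKi/L against S/L, for Ehmt1 0.23, Trim28 0.18 and Kdm4c 0.10 in 2i/L against MEKi/L, for Ehmt1 0.079 and Kdm4c 0.086 in 2i/L against GSK3i/L, for Kdm4c -0.015 in MEKi/L against GSK3i/L.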

Other observations

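The Ehmt1 and Ehmt2 complex is known to keep the tubulin gene Tuba3a and germline genes of the Magea family silent. Of 8 such genes 3 were tested, and no listed Magea gene passed the filter of 0.5 RPM in 3 or more libraries. Whether the complex has a part in the differences below was not tested. At 8 days Tuba3a was highest in MEKi/L (124 ± 16.5 RPM), followed by 2i/L (70.8 ± 9.40), S/L (21.6 ± 3.37) and GSK3i/L (14.4 ± 3.28 RPM, SD, n = 3 each). Against S/L it rose by 2.53 in MEKi/L (limma adjusted p = 6.4e-07) and by 1.72 in 2i/L (adjusted p = 7.6e-06) on the log2 scale, and fell by 0.59 in GSK3i/L (adjusted p = 0.034). Its reads can be shared with the near-identical Tuba3b, so the values are uncertain between the copies. Tuba3b stood at 0.231 ± 0.0759 RPM in S/L and 1.19 ± 0.692 RPM in MEKi/L (limma adjusted p = 0.0053). Against S/L it missed the threshold in 2i/L (adjusted p = 0.054) and in GSK3i/L (adjusted p = 0.073). Wfdc15a, the other tested gene, fell in 2i/L from 0.607 ± 0.444 to 0.0695 ± 0.0664 RPM (limma adjusted p = 0.015), and its adjusted p was 0.88 in MEKi/L and 0.079 in GSK3i/L. Both are near the lowest level tested.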
